A study of Mus musculus with 15 samples.

Results

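The interferon response genes examined here are 35 mouse genes, listed by symbol, that respond to or transmit interferon signals. They were chosen by name, not by a measured value, and 34 of them have an entry among the 31017 genes counted in every library (Mx2 was not analysed here). The libraries are RNA immunoprecipitations (RIP), in which an antibody pulls down RNA that is then sequenced. The series is about Dnmt1, the enzyme that copies DNA methylation onto new strands, carrying a mutation described as dominant, and the labels call its genotypes WT, Het and Hom without naming the allele or the age of the animals. In fibroblast lines from the tails of same-sex littermates (WT, Het, Hom), RNA fixed to protein with 1% formaldehyde was precipitated with an antibody against Dnmt1 (Dnmt1 RIP; 2 WT, 2 Het and 2 Hom libraries). From the same kind of cells, messenger RNA was precipitated with an antibody against 5-methylcytosine (m5C RIP; 2 WT, 1 Het and 1 Hom library, from 1 ug of RNA). The m5C RIP was also made from cortex (1 WT, 1 Het and 1 Hom library). A single input library was made from fibroblasts and another from cortex; their titles say input, while their antibody label reads anti-IgG and their genotype is not given. How many lines, cultures or animals stand behind the libraries is not stated, so each p-value is set against a library-to-library spread that may be technical only.

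Type I interferons bind a receptor on the cell surface that activates the kinases Jak1 and Tyk2. These phosphorylate Stat2, which joins Irf9 in a complex that binds a short DNA motif, the interferon-stimulated response element (ISRE), before many antiviral genes. The products include sensors of viral RNA, the 2-5A synthetases of the Oas family, the Ifit proteins, large GTPases, and Bst2 (tetherin), which holds budding virions at the cell surface. Most cell types keep a low level of these transcripts without infection, and macrophages and fibroblasts respond strongly to interferon.

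Promoters of 6 of the genes are printed below, chosen after their values were seen. All 6 differed between the tissues in the tests described later. Only Bst2, Isg15, Ifit1 and Ifit3 of them also passed the test between the precipitations. Each is the 250 bases before the gene's RefSeq start in GRCm38.p6, the same assembly as the mm10 build of the counts, read 5′ to 3′ on the gene's strand. Capitals mark matches to the ISRE core, GAAA and again GAAA with 2 bases of any kind between them, on either strand, and overlapping matches are merged.
Bst2 (chr8:71537473-71537722, minus strand): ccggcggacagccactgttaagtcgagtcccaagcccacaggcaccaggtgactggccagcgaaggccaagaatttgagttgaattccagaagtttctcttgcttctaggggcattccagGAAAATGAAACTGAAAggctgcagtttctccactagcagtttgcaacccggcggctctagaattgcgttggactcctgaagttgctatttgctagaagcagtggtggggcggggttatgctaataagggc
Isg15 (chr4:156200819-156201068, minus strand): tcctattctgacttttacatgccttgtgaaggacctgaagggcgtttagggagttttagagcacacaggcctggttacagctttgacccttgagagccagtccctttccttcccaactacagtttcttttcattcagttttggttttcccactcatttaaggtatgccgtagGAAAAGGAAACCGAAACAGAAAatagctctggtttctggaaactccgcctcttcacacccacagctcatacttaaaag
Ifit1 (chr19:34640639-34640888, plus strand): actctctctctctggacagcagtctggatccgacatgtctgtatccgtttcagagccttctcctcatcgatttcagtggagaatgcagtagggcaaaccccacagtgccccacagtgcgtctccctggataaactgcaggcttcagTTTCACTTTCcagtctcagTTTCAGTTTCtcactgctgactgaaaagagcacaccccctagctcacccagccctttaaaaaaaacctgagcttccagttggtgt
Ifit3 (chr19:34583279-34583528, plus strand): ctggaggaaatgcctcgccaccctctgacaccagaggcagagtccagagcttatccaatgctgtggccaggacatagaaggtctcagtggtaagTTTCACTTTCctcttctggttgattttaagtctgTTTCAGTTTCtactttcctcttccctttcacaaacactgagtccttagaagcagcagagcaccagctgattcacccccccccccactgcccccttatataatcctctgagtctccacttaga
Oas1a (chr5:120907526-120907775, minus strand): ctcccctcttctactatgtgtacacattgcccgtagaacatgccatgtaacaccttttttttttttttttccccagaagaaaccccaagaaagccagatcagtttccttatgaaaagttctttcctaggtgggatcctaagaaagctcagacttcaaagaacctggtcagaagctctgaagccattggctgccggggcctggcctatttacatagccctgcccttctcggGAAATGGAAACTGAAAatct
Cmpk2 (chr12:26468965-26469214, plus strand): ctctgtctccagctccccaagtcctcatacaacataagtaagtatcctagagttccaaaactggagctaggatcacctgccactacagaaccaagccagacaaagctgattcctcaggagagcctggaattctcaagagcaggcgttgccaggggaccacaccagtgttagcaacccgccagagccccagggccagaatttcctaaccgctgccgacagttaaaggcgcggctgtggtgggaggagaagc
The core occurs in 11 of the 27 members with a RefSeq promoter (40.7%), against 936 of all 27025 promoters of the same length (3.46%). Besides 5 of the promoters shown, the members with a match are Stat2, Oas3, Gbp2, Gbp3, Rsad2 and Cxcl10. Cmpk2 holds none in this window. Nor do Trim25, Oasl2, Irf9, Ddx58 and Eif2ak2, which passed the test in both the tissue and the antibody comparison. The members' windows held a median of 5 CpG sites, and all windows a median of 6. No promoter entry was matched for Usp18, Dhx58, Zbp1, Mx1, Oas2, Parp9 and Parp14.

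Total gene counts ranged from 217173 to 4913482 per library. Lars2, Gm42418, Gm26917 and Gm10800 took 4.01 to 63.5% of them, so levels are given as counts per 1000000 (CPM) of the total without these 4 genes, which ranged from 95107 in the fibroblast input to 4576517 in the cortex input. In fibroblast m5C RIP, no gene of the 31017 had fewer counts in WT library 1 than in Hom, and 7163 of the 19511 genes detected in Hom had the same count in both, so the tables are not independent and it was left out of tests other than that of Het against WT in fibroblast m5C RIP. The Hom library's counts equal 90.1% of the member counts of WT library 1, and 85.4% of its total without the 4 genes.

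Markers of other cell types were present and bear on every comparison below. The 16 macrophage markers, Csf1r, Lyz2, the C1q genes and Cd68 among them, were all detected in each of the 4 fibroblast m5C libraries and summed to 8895 to 16204 CPM there, against 199.9 to 223 CPM in cortex m5C RIP. In the Dnmt1 RIP they summed to 207 and 1655 CPM in the WT libraries, 304 and 6161 CPM in the Het libraries and 292 and 1368 CPM in the Hom libraries, each pair in the order library 1, library 2. Of the 16 markers, 9 were detected in Dnmt1 RIP WT library 1 (Lyz2 and C1qb were at 0 there) and 14 to 16 in the other 5. The 12 fibroblast markers, collagens and Pdgfra among them, summed to 26607 to 33925 CPM in the fibroblast m5C libraries, 22607 and 8762 CPM in the Het Dnmt1 RIP libraries, but 1035 to 3097 CPM in the WT and Hom Dnmt1 RIP libraries. The 10 neuron markers summed to 3033 to 4721 CPM in the Dnmt1 RIP libraries, labelled fibroblast, and to 7670 to 8251 CPM in cortex m5C RIP. In fibroblast m5C RIP they summed to 493 to 949 CPM in Het, Hom and WT library 2 and to 1048 CPM in WT library 1. The Dnmt1 RIP libraries also held astrocyte markers at 1594 to 2650 CPM and oligodendrocyte markers at 1146 to 1813 CPM. In the fibroblast input, the neuron markers summed to 2566 CPM and the fibroblast markers to 2282 CPM. Lymphocyte markers summed to at most 137 CPM in any library. What part these cell types or RNAs have in the members' levels was not tested.

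The interferon response genes were most abundant in the fibroblast m5C RIP and least abundant in cortex. Summed over the 34 genes, they reached 1606 CPM in fibroblast m5C WT library 1, 1097 in WT library 2, 1473 in Het and 1695 in Hom. The 3 cortex m5C libraries gave 206 CPM (WT), 182 CPM (Het) and 193 CPM (Hom), and the cortex input 188. No cortex library came near the lowest fibroblast m5C library. The Dnmt1 RIP libraries summed to 549 and 558 CPM in the WT libraries, 531 and 1397 CPM in the Het libraries and 619 and 712 CPM in the Hom libraries, so that Het library 2 stood at the level of the m5C RIP while the other 5 lay together. The macrophage markers were highest in Het library 2 among the Dnmt1 RIP libraries as well.

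**Figure D1:**
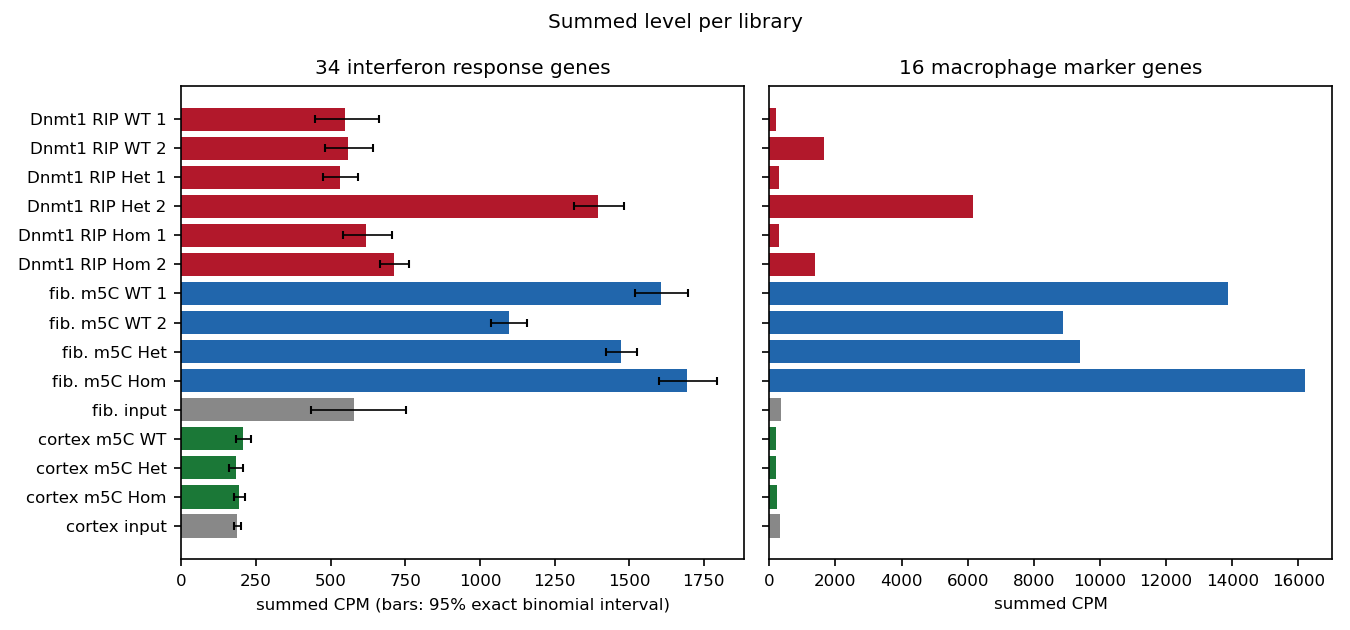
Summed CPM of the 34 interferon response genes (left, with 95% exact binomial intervals, which cover counting error only) and of the 16 macrophage markers (right, without intervals) in each of the 15 libraries; fib. stands for fibroblast. Dnmt1 RIP Het library 2 reaches 1397 CPM against 531 in Het library 1, and the cortex libraries stay between 182 and 206 CPM.

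All 34 genes had counts in each of the 4 fibroblast m5C libraries, 26 to 29 in the cortex m5C libraries, 33 in the cortex input and 25 to 34 in the Dnmt1 RIP libraries. The shallow fibroblast input detected 8. Per kilobase of exon (GENCODE M21 lengths), Bst2 had the highest level of the members, at a mean of 126 CPM per kb over the 15 libraries. Isg15, a ubiquitin-like modifier (18.9), Ifit3 (16.1) and Ifit1 (15.6), which bind viral RNA or its sensors' adaptors, followed in CPM per kb. Dtx3l, Stat2, Irf1 and Eif2ak2 came next at 8.81, 8.73, 6.59 and 6.26 CPM per kb, and Ifi44 was last at 1.55. Dtx3l owes its place to the fibroblast input, where it stood at 77.1 CPM per kb, against 0.954 to 6.43 CPM per kb as means of the other groups. Reads could be shared with close copies for Ifit3 (Ifit3b), Oas1a (Oas1g) and Ifit1 (Ifit1bl1), and Dtx3l and Parp9 overlap by 458 exon bases on opposite strands; the sources used here do not give the strand setting of the counting, so values of these genes are uncertain to that extent.

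**Figure D2:**
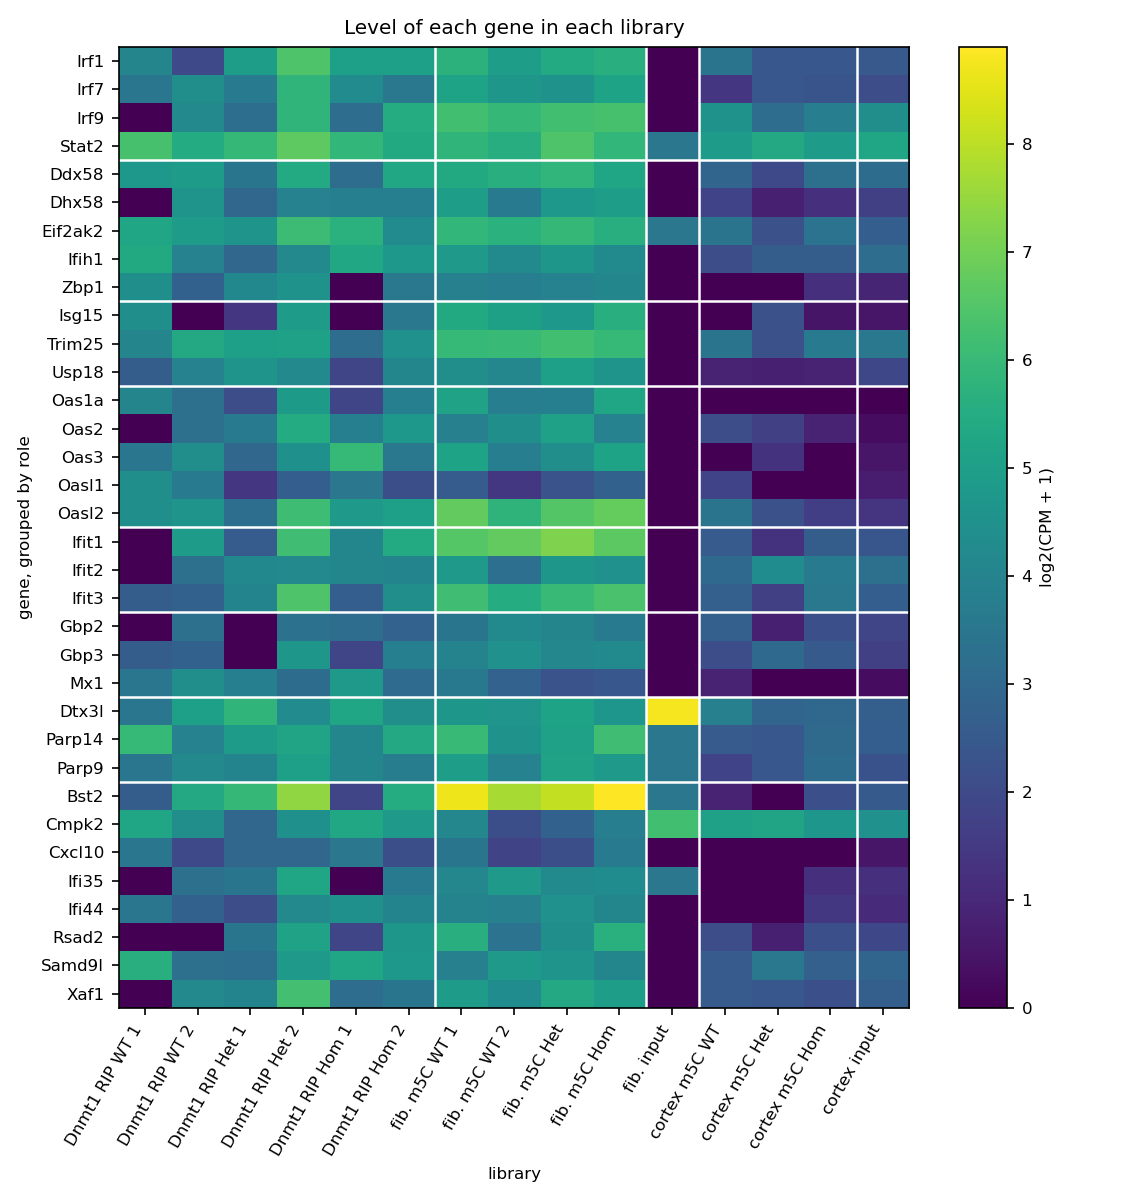
Level of each of the 34 genes (rows, grouped by role, white lines between roles) in each library (columns) as log2(CPM + 1), darkest at 0. Bst2 is brightest in the fibroblast m5C libraries and Dtx3l in the fibroblast input, Oas1a is at 0 in all 4 cortex libraries, and the fibroblast input has 26 genes at 0.

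The comparison of fibroblast with cortex m5C RIP asks which of these transcripts differ between the tissues, and nearly all were higher in fibroblasts. Of the 31 members with enough counts to test, 29 were higher in fibroblasts, against 34.3% of all 12275 genes tested, and 1 was lower, against 34.1%. The median difference over the 31 was 3.11 on the log2 scale (8.65-fold), and over all genes tested it was 0.01. In the same 29 genes all 3 fibroblast libraries lay above all 3 cortex libraries; 36.1% of all genes tested were separated in this direction and 36.8% in the other. In such bulk samples, fewer cells of a type and less RNA per cell cannot be told apart. All 16 macrophage markers and 9 of 10 tested fibroblast markers were also higher in the fibroblast libraries, and all 10 neuron markers lower. Log2 differences below are followed by their standard error.

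Bst2 showed the largest difference among the members with counts in cortex. Its level was 210.4 CPM in fibroblast m5C WT library 2, 271 in Het and 477 in Hom, against 0.813, 0 and 3.48 CPM in cortex WT, Het and Hom, where it had 1, 0 and 8 counts. The lowest fibroblast library was 60.5 times the highest cortex library. The fitted log2 difference was 7.71 ± 0.34 (edgeR adjusted p = 6.37e-18).

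The transcription factors of the pathway were all 4 higher in fibroblasts. Stat2, a signal-activated factor of the ISRE-binding complex, was at 45.5, 87.1 and 58.3 CPM in fibroblast WT library 2, Het and Hom and at 28.4, 40.1 and 28.7 CPM in cortex WT, Het and Hom. Its groups were separate but close, with a log2 difference of 1.11 ± 0.25 (edgeR adjusted p = 0.000271), the smallest among the 29. Irf9, the DNA-binding partner of Stat2, was at 60.1, 73.7 and 78.7 CPM in fibroblasts and 22.8, 8.01 and 13 CPM in cortex. Irf1, which activates interferon and immune genes, was at 30.1, 42.9 and 46.7 CPM against 9.75, 4.37 and 4.35. Irf7, the amplifier of type I interferon production, was at 24.9, 22.6 and 35 CPM against 1.63, 4.37 and 3.91. The log2 differences were 2.49 ± 0.31 for Irf9, 2.89 ± 0.41 for Irf1 and 3.16 ± 0.50 for Irf7 (edgeR adjusted p = 3.17e-08, 3.57e-07 and 2.11e-06).

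The 5 sensors of foreign nucleic acid were also all higher in fibroblasts, with log2 differences from 2.27 to 4.71. Ddx58 (RIG-I), which detects viral RNA ends, was at 48.1, 57.3 and 37.9 CPM in fibroblast WT library 2, Het and Hom, against 6.5, 2.91 and 8.69 CPM in cortex. Eif2ak2 (PKR), the kinase that stops translation on double-stranded RNA, was at 50.7, 59.2 and 48.1 CPM against 9.75, 3.64 and 9.56. For both, the fibroblast libraries lay close together and every cortex library was below 10 CPM. Their log2 differences were 3.08 ± 0.39 and 2.93 ± 0.36 (edgeR adjusted p = 4.45e-08 and 2.56e-08). Ifih1 (MDA5), the sensor of long double-stranded RNA, differed by 2.27 ± 0.50, Dhx58 (LGP2), which modulates both helicases, by 4.05 ± 0.64, and Zbp1, a sensor of Z-form nucleic acid, by 4.71 ± 0.82 on the log2 scale (edgeR adjusted p = 0.000212, 1.89e-06 and 9.03e-06). Zbp1 rested on 0, 0 and 3 counts in cortex.

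Regulators of the sensors gave a like picture. Isg15 was at 32.6, 26 and 48.1 CPM in fibroblast WT library 2, Het and Hom, and at 0, 3.64 and 0.435 CPM in cortex, from 0, 5 and 1 counts. Trim25, the ubiquitin ligase that activates RIG-I, was at 64.4, 72.2 and 61.2 CPM against 9.75, 3.64 and 11.7. Both were separate between the tissues, with log2 differences of 4.88 ± 0.61 and 3.11 ± 0.34 (edgeR adjusted p = 3.79e-08 and 2.36e-09). Usp18, which removes Isg15 and dampens the receptor, differed by 4.87 ± 0.65 (edgeR adjusted p = 1.06e-07).

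Among the antiviral effectors, the Ifit genes split. Ifit1 was at 106, 143 and 101 CPM in fibroblast WT library 2, Het and Hom against 4.88, 1.46 and 5.22 CPM in cortex (log2 difference 4.96 ± 0.33, edgeR adjusted p = 9.01e-14), and Ifit3 was at 44.7, 64 and 80.2 CPM against 5.69, 2.19 and 10.9 (log2 difference 3.48 ± 0.36, edgeR adjusted p = 9.2e-10). Ifit2 did not pass the test: its levels were 8.59, 25 and 21.9 CPM in fibroblasts and 7.32, 18.9 and 11.3 CPM in cortex, which overlap (log2 difference 0.70 ± 0.42, edgeR adjusted p = 0.145). These genes lie side by side on chromosome 19, Ifit2 from 34550694 to 34576419, Ifit3 from 34583531 to 34588731 and Ifit1 from 34640871 to 34650009 (mm10).

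The Oas family makes or regulates 2-5A, the activator of RNase L, and all 4 tested members were higher in fibroblasts. Oas1a had no count in any of the 3 cortex m5C libraries and 12.9, 13.5 and 36.5 CPM in fibroblast WT library 2, Het and Hom. Set against a floor of 3 counts in each cortex library, it was at least 10.6-fold higher. Oasl2 was at 54.1, 91 and 109 CPM against 9.75, 3.64 and 2.17 (log2 difference 4.29 ± 0.39, edgeR adjusted p = 5.59e-11). Oas2 and Oas3 differed by 3.6 ± 0.57 and 5.7 ± 0.81 on the log2 scale (edgeR adjusted p = 2.16e-06 and 3.4e-07). The chemokine Cxcl10, too scarce to test, likewise had no count in the cortex m5C libraries and was at least 2.97-fold higher in fibroblasts by the same floor.

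The remaining effectors were higher in fibroblasts with 1 exception. Parp14, Parp9 and Dtx3l, an ADP-ribosyltransferase pair and a ubiquitin ligase of interferon signalling, differed by 3.02 ± 0.40, 2.48 ± 0.48 and 1.81 ± 0.41 on the log2 scale (edgeR adjusted p = 1.12e-07, 3.87e-05 and 0.000323). Rsad2 (viperin), which makes a chain-terminating nucleotide, differed by 3.49 ± 0.59 (edgeR adjusted p = 5.9e-06). Cmpk2, the mitochondrial nucleotide kinase which lies next to Rsad2 on chromosome 12, went the other way. It was at 3.43, 5.78 and 13.1 CPM in fibroblast WT library 2, Het and Hom and at 33.3, 35.7 and 24.3 CPM in cortex WT, Het and Hom, so that every cortex library was above every fibroblast library (log2 difference -2.06 ± 0.45, edgeR adjusted p = 0.000168).

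**Figure D3:**
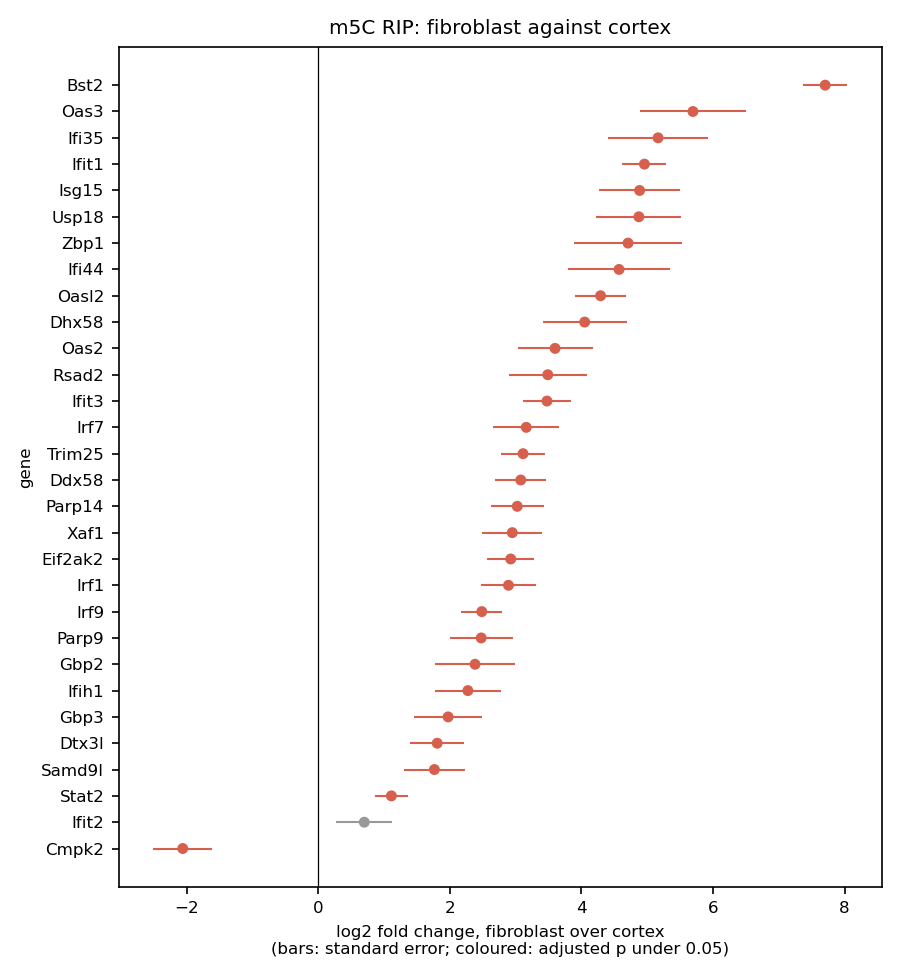
Log2 difference, fibroblast over cortex m5C RIP, of the tested members (6 libraries; points are edgeR estimates, bars standard errors, red where the adjusted p is under 0.05). Bst2 stands at 7.71, Ifit2 at 0.70 without passing the test, and Cmpk2 at -2.06; Oas1a is not drawn because cortex is at 0.

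The rest of the pathway showed the same direction in most of its genes. Of the receptor, kinase and Stat genes, 8 of 11 tested were higher in fibroblasts and 1 lower, with Il10rb, a receptor chain for interferon lambda, differing by 4.77 ± 0.38 on the log2 scale (edgeR adjusted p = 3.57e-12). Of the further sensors and adaptors, 10 of 13 were higher and 0 lower, led by Tmem173 (STING), the adaptor of the DNA sensor cGAS, at 4.7 ± 0.39 (edgeR adjusted p = 6.32e-12). Of 39 further interferon-induced genes, 33 were higher and 1 lower, led by Ifitm3, Ifitm2 and Lgals3bp with 7.44 ± 0.28, 7.33 ± 0.35 and 4.91 ± 0.24 (edgeR adjusted p = 4.31e-19, 4.07e-17 and 5.49e-17). The 20 interferon genes themselves had few counts: none passed the filter in any comparison, and they summed to 4.29 to 14.9 CPM in the fibroblast m5C libraries and 1.46 to 5.69 CPM in cortex m5C RIP. In the Dnmt1 RIP libraries they summed to 13.4 to 63.8 CPM, the highest in Hom library 1, from 24 counts, of which 11 were of Ifna4 (an interferon alpha). The same 30 members were called after leaving out each library in turn, with a median between 2.98 and 3.31.

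The comparison of the Dnmt1 RIP with the m5C RIP in fibroblasts asks which transcripts these precipitations recover unequally. The Dnmt1 RIP used RNA fixed to protein with formaldehyde and the m5C RIP used messenger RNA, so antibody and protocol cannot be told apart. Of the 30 members tested, 9 were lower in the Dnmt1 RIP, against 23.2% of all 12736 genes tested, and 0 were higher, against 23%. At an unadjusted p under 0.05, 1 member (Cmpk2) was higher and 13 were lower, where 27.7% and 27% of all genes were. DESeq2 called 10 members lower and 0 higher. In either direction it called 6130 of all genes (48.1%), of which 3113 were higher. The median difference of the 30 was -1.07 on the log2 scale, and that of all genes 0.02. The macrophage markers were lower in 15 of 16 cases and the fibroblast markers in 9 of 11, while all 10 neuron markers were higher; the part of these cell types in the difference was not tested.

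The members that fell were Bst2, Trim25, Oasl2, Ifit1, Ifit3, Irf9, Isg15, Ddx58 and Eif2ak2. For Bst2 the lowest, median and highest of the 6 Dnmt1 RIP libraries were 2.66, 42.5 and 169 CPM, all below the 210.4, 271 and 477 CPM of m5C WT library 2, Het and Hom (log2 difference -3.33 ± 0.66, edgeR adjusted p = 0.00196). For Ifit1 they were 0, 22.4 and 71.1 CPM, again below all 3 m5C libraries (log2 difference -2.43 ± 0.57, edgeR adjusted p = 0.00524). Trim25, at 7.97, 26.8 and 40.5 CPM, lay below the 64.4, 72.2 and 61.2 CPM of its m5C libraries as well (log2 difference -1.8 ± 0.36, edgeR adjusted p = 0.00207). Irf9 was separate in the same way, while for Isg15, Ddx58 and Oasl2 the groups were separate on the TMM scale of the fit only, Het library 2 exceeding 1 m5C library in CPM (for Ddx58, Hom library 2 did so too, at 39.5 against 37.9 CPM). Irf9, Isg15, Ddx58 and Oasl2 had log2 differences of -2.01 ± 0.57, -2.21 ± 0.76, -1.25 ± 0.46 and -1.91 ± 0.44 (edgeR adjusted p = 0.0137, 0.0313, 0.0416 and 0.00433). These 7 genes, of the 30 members tested, are those whose groups did not overlap. Among all genes tested, 22.1% were separated downward, a like share, so such separation was not particular to the members. No member was separated upward, where 19.8% of all genes were. Ifit3, at 5.18, 10.4 and 85.6 CPM in the Dnmt1 RIP against 44.7, 64 and 80.2 CPM, overlapped through Het library 2 (log2 difference -2.14 ± 0.58, edgeR adjusted p = 0.0108). Eif2ak2 overlapped too, at 18.5, 32.6 and 67.2 CPM against 50.7, 59.2 and 48.1 CPM (log2 difference -0.98 ± 0.38, edgeR adjusted p = 0.0487).

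The calls of Bst2, Trim25, Oasl2 and Ifit1 held in all 15 alternatives run, and the other 5 did not. Ifit3 and Irf9 lost the call without m5C WT library 2 (edgeR adjusted p = 0.066 and 0.0822) or without m5C Hom (edgeR adjusted p = 0.0947 and 0.0537). Isg15 lost it in 5 alternatives, DESeq2 among them (adjusted p = 0.135), Ddx58 in 8 and Eif2ak2 in 9. With total counts alone as the scale, the edgeR adjusted p of Ddx58 was 0.144 and that of Eif2ak2 0.172, and DESeq2 gave Eif2ak2 an adjusted p of 0.054.

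The members nearest to equal levels in both precipitations included Samd9l (-0.37 ± 0.50), Dtx3l (-0.39 ± 0.44), Ifih1 (-0.42 ± 0.49) and Stat2 (-0.46 ± 0.28) on the log2 scale, none past the test. Cmpk2 was the single member with a positive estimate, 1.27 ± 0.53 (edgeR adjusted p = 0.068), and it passed the test without Dnmt1 RIP Het library 1. In the rest of the pathway, 6 of 11 receptor and kinase genes, 6 of 12 further sensors and adaptors and 18 of 39 further interferon-induced genes were lower, and 0, 0 and 3 higher; Jak1, a receptor kinase, and Lgals3bp, a secreted glycoprotein, fell, with log2 differences of -1.79 ± 0.28 and -3.74 ± 0.46 (edgeR adjusted p = 0.000609 and 0.000284). The number of members called depended on single libraries: it was 17 without Dnmt1 RIP Het library 2, and 4 without m5C WT library 2 or without m5C Hom.

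**Figure D4:**
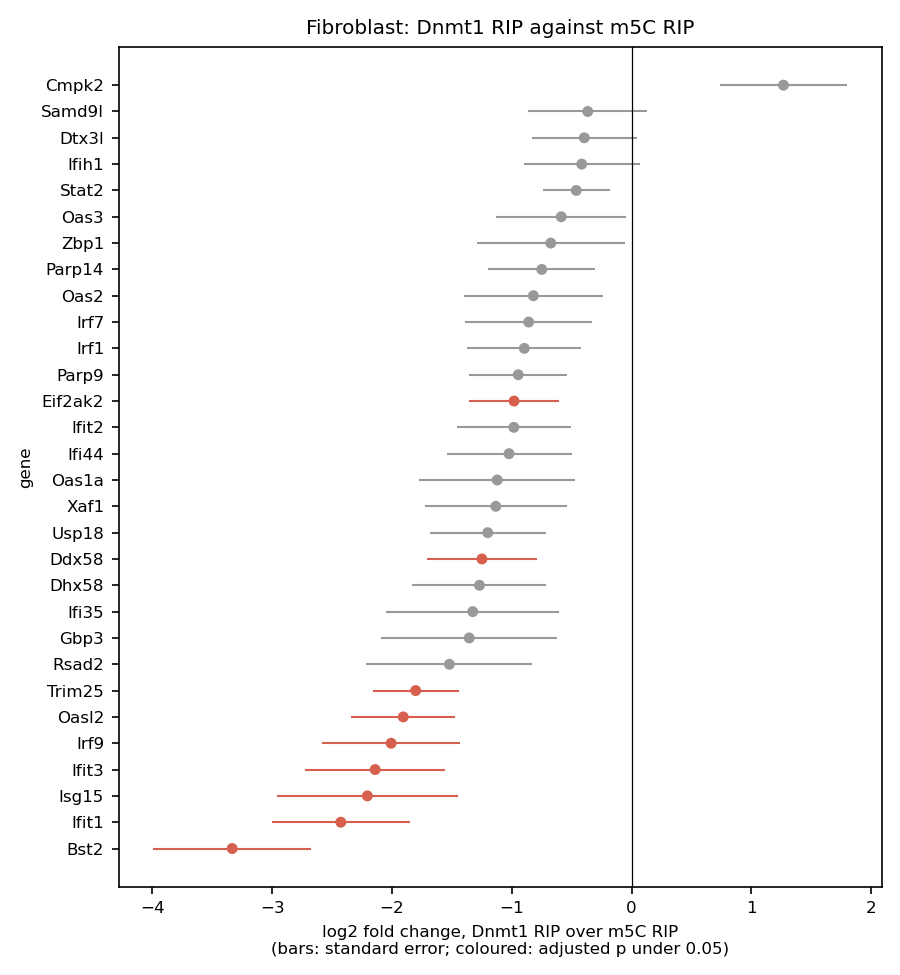
Log2 difference, Dnmt1 RIP over m5C RIP in fibroblasts, of the 30 tested members (9 libraries; points are edgeR estimates, bars standard errors, red where the adjusted p is under 0.05). All members but Cmpk2 lie below 0, and Bst2 is lowest at -3.33.

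Within the Dnmt1 RIP, the genotypes were compared to ask whether the mutation changes the transcripts recovered, and no member passed the test among genes filtered for low counts. Without that filter edgeR called 192 genes in Het against WT, Irf1 (adjusted p = 0.0342) and Bst2 among them. In Hom against Het it called 113 genes, Bst2 (adjusted p = 0.0283) among them. Both members had estimates of the same sign as below. The share of all genes called without the filter is not given, so these member calls cannot be set against it. For Het against WT, 0 of 28 members tested were called by edgeR, as were 0% of all 13589 genes, and DESeq2 called 11 genes (0.0809%) and no member. At an unadjusted p under 0.05, 4 members were higher (Irf1, Ifit3, Rsad2 and Bst2) and 0 lower, where 4.43% of all genes were higher and 1.96% lower. In 7 members both Het libraries lay above both WT libraries, Irf1, Ifit3, Rsad2, Bst2, Oas2, Ifit2 and Usp18, and in 0 below, where 18.2% and 16.9% of all genes were so separated. Estimates were positive for 22 members and negative for 6, with a median of 0.80, where 51.6% of all genes were positive and their median was 0.03. Without Het library 2 the members' median was -0.065. In data simulated on these libraries, with the changed genes drawn from all genes tested, the test recovered 22% of 4-fold and 88% of 16-fold changes. Changes of 4-fold size were thus mostly not detected there. The rate for the members alone was not computed.

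The members with the lowest p-values were mostly highest in Het library 2. Irf1 was at 15.5 and 2.89 CPM in the WT libraries, 30.1 and 87 CPM in the Het libraries and 31.9 and 31.9 CPM in the Hom libraries. Both WT libraries were below the other 4, the log2 difference of Het to WT was 2.95 ± 0.86 (edgeR adjusted p = 0.732), and that of Hom to WT 1.99 ± 0.89 (edgeR adjusted p = 1). Ifit3 was at 5.18 and 5.79 CPM in the WT libraries, 15 and 85.6 CPM in the Het libraries and 5.32 and 20.2 CPM in the Hom libraries. Het library 2 stood alone, and the log2 difference of Het to WT was 3.2 ± 1.11 (edgeR adjusted p = 0.732). Bst2 was at 5.18 and 40.5 CPM in the WT libraries, 60.1 and 169 CPM in the Het libraries and 2.66 and 44.5 CPM in the Hom libraries, with 1 count each in WT library 1 and Hom library 1. Its Het libraries were above the other 4, with log2 differences of 2.21 ± 0.96 from WT and -2.13 ± 0.87 for Hom from Het (edgeR adjusted p = 0.781 and 0.988). Rsad2 had no count in either WT library, 10.0 and 34.3 CPM in Het and 2.66 and 25.2 CPM in Hom. A floor of 3 counts is 15.5 and 8.68 CPM in WT libraries 1 and 2. The mean of Rsad2 was 1.83 times the mean floor in Het and 1.15 times in Hom. Het library 1 was below the floor of WT library 1, and Hom library 1 below both floors. These ratios are therefore not lower bounds, and no test was passed.

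The helicase Ifih1, Cmpk2 and Samd9l, an antiviral translation inhibitor, had the lowest p-values among the members with lower estimates in Het. Ifih1 was at 41.4 and 14.5 CPM in the WT libraries, 6.68 and 17.1 CPM in the Het libraries and 39.9 and 26 CPM in the Hom libraries. The WT and Het libraries overlapped, and the log2 difference was -1.0 ± 0.81 (edgeR adjusted p = 0.863). For Cmpk2 and Samd9l it was -0.85 ± 0.77 and -0.40 ± 0.88 (edgeR adjusted p = 0.887 and 0.957). Stat2 was at 77.6 and 43.4 CPM in the WT libraries, 60.1 and 103 CPM in the Het libraries and 58.5 and 41.2 CPM in the Hom libraries (log2 difference of Het to WT 0.58 ± 0.48). The remaining sensors Ddx58, Dhx58, Eif2ak2 and Zbp1 had Het to WT differences of 0.01 ± 0.87, -0.24 ± 1.16, 0.58 ± 0.70 and 0.80 ± 1.18, each smaller than its error.

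**Figure D5:**
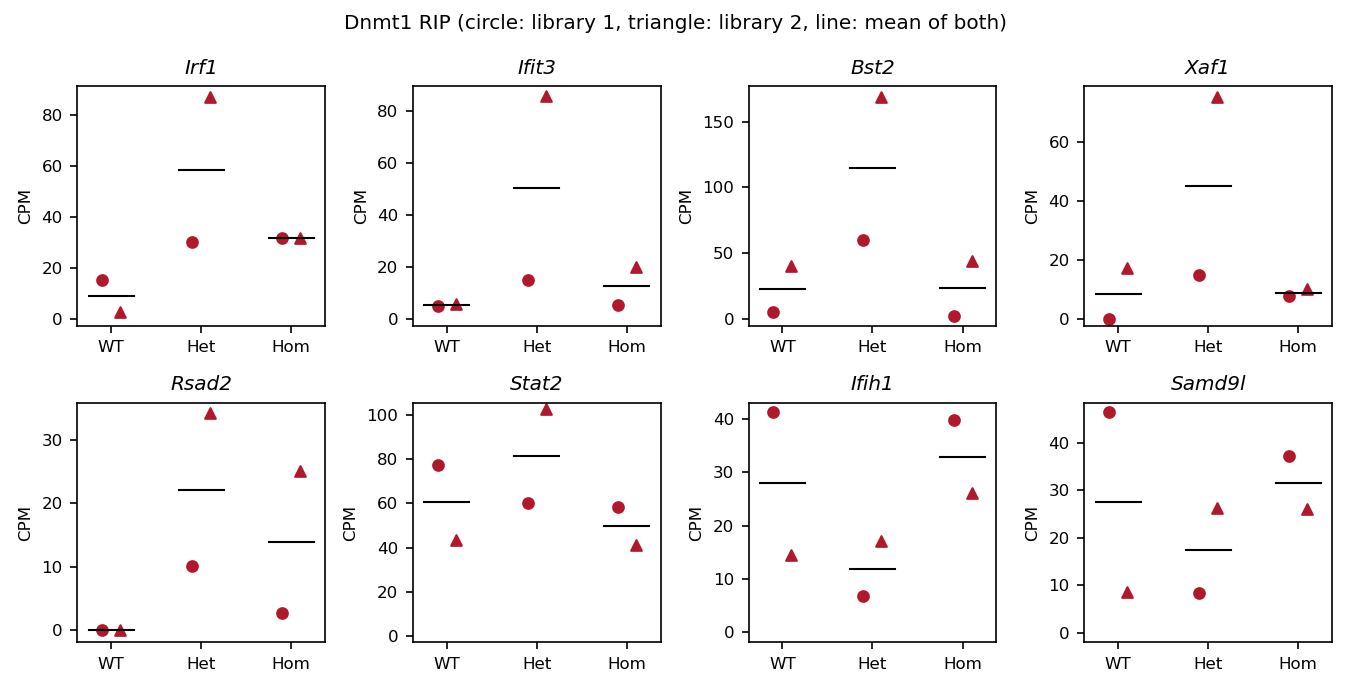
CPM of 8 members in the 6 Dnmt1 RIP libraries by genotype (circles library 1, triangles library 2, lines the mean of the pair; axes start near 0 and differ between panels). Het library 2 is the highest of the 6 for Irf1, Ifit3, Bst2, Xaf1, Rsad2 and Stat2, and for Ifih1 and Samd9l the highest is WT library 1.

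Among all 34 members, Het library 2 held the highest value of the 6 Dnmt1 RIP libraries for 21. The like share over all genes was not computed. It exceeded Het library 1 for 30 of 34 members, with a ratio of the summed levels of 2.63, while library 2 exceeded library 1 for 20 of 34 members in WT (1.02) and 19 of 34 in Hom (1.15). Of the 24 members with at least 50 counts in the Dnmt1 RIP libraries, library 2 was above library 1 for 22 in Het, 16 in WT and 14 in Hom. Over all 12404 such genes, the shares were 56.3% in Het, 48.5% in WT and 46.7% in Hom. The roles shared in this rise between the Het libraries unequally. The Ifit genes summed to 36.8 and 174 CPM in Het libraries 1 and 2, the Oas family to 31.7 and 166 and the 4 transcription factors to 110.3 and 300.4, whereas Parp9, Parp14 and Dtx3l together gave 98.6 and 85.6. The macrophage markers summed to 304 and 6161 CPM in the same libraries; their part in the difference was not tested.

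For Hom against WT, 0 of 28 members were called, as were 0% of all genes by edgeR and DESeq2. At an unadjusted p under 0.05, 2 members were higher (Rsad2 and Irf1) and 0 lower, where 1.21% and 1.06% of all genes were. Both Hom libraries lay above both WT libraries in 6 members and below in 0 (15.8% and 14.3% of all genes). The members' median was 0.16, with 15 positive and 13 negative estimates, against 0.01 for all genes, of which 51% were positive. By total counts alone the median of all genes moved by -0.54 and that of the members was -0.24, so no direction can be given. Oas2, a 2-5A synthetase, was at 0 and 8.68 CPM in the WT libraries and 13.3 and 26 CPM in the Hom libraries, a log2 difference of 1.9 ± 1.16 (edgeR adjusted p = 1). Trim25, Zbp1 and Stat2 had negative estimates of -0.87 ± 0.76, -0.80 ± 1.25 and -0.26 ± 0.49, with errors of about their own size or larger and the same edgeR adjusted p of 1.

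For Hom against Het, 0 of 28 members were called, as were 0% of all genes by edgeR, and DESeq2 called 15 genes (0.11%) and no member. At an unadjusted p under 0.05, 2 members were lower (Bst2 and Xaf1) and 0 higher, where 3.3% and 1.32% of all genes were. Both Hom libraries lay below both Het libraries in 9 members and above in 2 (Ifih1 and Cmpk2), where 16.6% and 18% of all genes were so separated. The members' median was -0.57, with 6 positive and 22 negative estimates (49.2% of all genes were positive), and it was 0.31 without Het library 2. Xaf1, a pro-apoptotic zinc finger protein, was at 0 and 17.4 CPM in the WT libraries, 15 and 75.1 CPM in the Het libraries and 7.97 and 10.1 CPM in the Hom libraries, a log2 difference of Hom to Het of -2.33 ± 0.96 (edgeR adjusted p = 0.988). Ifih1, Cmpk2 and Oas3 had positive estimates of 1.3 ± 0.74, 1.1 ± 0.71 and 1.12 ± 0.92, all with an edgeR adjusted p of 0.988. The comparisons of Het with WT, Hom with WT and Hom with Het share libraries, so their estimates are not independent.

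In the fibroblast m5C RIP the genotypes gave no called member. WT library 1 is not independent of Hom, so the spread of the WT pair used here may not be that between WT libraries. For Het against WT, with the spread taken from the WT pair alone, 0 of 33 members were called, against 0.0326% of 12273 genes (4 genes), and DESeq2 called no gene. At an unadjusted p under 0.05, 1 member (Stat2) was higher and 0 lower, where 0.904% and 2.4% of all genes were. The median of the members was 0.18, with 21 positive and 12 negative estimates (48% of all genes were positive), and in simulated data the test recovered 5% of 4-fold and 78% of 16-fold changes. Stat2 was at 56.1 and 45.5 CPM in WT libraries 1 and 2, 87.1 in Het and 58.3 in Hom, with a log2 difference of Het to WT of 0.81 ± 0.38 (edgeR adjusted p = 1). The Het library was above the other 3, of which WT library 1 and Hom are not independent. Oas2 and Xaf1 had differences of 0.94 ± 0.53 and 0.81 ± 0.47, and Oas1a, Isg15 and Irf7 of -0.70 ± 0.57, -0.47 ± 0.45 and -0.36 ± 0.49, all with an edgeR adjusted p of 1.

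Since WT library 1 is not independent of Hom, Het and Hom were also set against WT library 2 alone, without a test. Of 28 members with at least 50 counts over Het and WT library 2, 22 were higher in Het and 6 lower, with a median log2 ratio of 0.50 against 0.05 for all 9032 such genes. At least 2-fold higher were 5 members, Dhx58, Rsad2, Xaf1, Parp9 and Ifit2, where 1.93% of all genes were, and no member was 2-fold lower, where 0.919% were; the lowest log2 ratios were -0.59 for Ifi35 and -0.37 for Gbp3. For Hom, 13 members had enough counts, with a median of 0.46 against 0.02 for all 6978 genes. Bst2 (477 against 210.4 CPM) and Parp14 (71.5 against 22.3 CPM) were at least 2-fold higher in Hom, where 2.84% of all genes were, none was 2-fold lower, where 2.36% were, and the lowest log2 ratio was -0.33 for Ddx58. Macrophage markers summed to 8895 CPM in WT library 2, 9391 CPM in the Het library and 16204 CPM in the Hom library. Both ratios share WT library 2.

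In cortex m5C RIP few members had enough counts for a ratio between genotypes. Stat2 was at 28.4 CPM (WT), 40.1 CPM (Het) and 28.7 CPM (Hom), and Cmpk2 at 33.3, 35.7 and 24.3. Irf9 was at 22.8 CPM in WT and 13 in Hom. Of 2 members in Het and 3 in Hom with at least 50 counts over the pair, none differed 2-fold from WT, while 2.95% and 2.6% of all such genes did. With 1 library per genotype there is no replicate check.

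The effect of Het was not shown to depend on the antibody used. In a fit of Dnmt1 RIP and m5C RIP with an interaction term, 0 of 33 members and 0% of 16831 genes were called by edgeR, DESeq2 called 0, and 0 members had an unadjusted p under 0.05, where 2.01% of all genes did. The members' median difference in effect was 0.31, against 0.13 for all genes. The largest estimates in either direction by p were 2.6 ± 1.2 for Irf1, 2.84 ± 1.49 for Ifit3 and, with WT at 0, a positive one for Rsad2, and -1.32 ± 1.17, -1.44 ± 1.41 and -2.96 ± 2.28 for Ifih1, Cmpk2 and Oasl1 (edgeR adjusted p = 1 for each). The simulated test recovered 0% of 4-fold and 24% of 16-fold changes.

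Against the fibroblast input, 1 of 32 members differed in the Dnmt1 RIP. Before adjustment, 1 member was higher and 2 lower at an edgeR p under 0.05. Of all 16558 genes, 4952 passed that limit, 3940 of them higher. With adjustment, Dtx3l was lower, where 1.68% of all genes were, and no member was higher, where 3.31% were. It was at 442 CPM in the input, from 42 counts, and at 10.4, 26 and 55.1 CPM as the lowest, median and highest of the Dnmt1 RIP libraries (log2 difference -4.09 ± 0.56, edgeR adjusted p = 0.0339). The call was lost without WT library 1, Hom library 1 or Hom library 2 (edgeR adjusted p = 0.0607, 0.0646 and 0.0526; over all alternatives run, 1.63e-12 to 0.0646). Dtx3l and Cmpk2 made up 89.1% of the input's 55 member counts, and the other members with counts, Bst2, Eif2ak2, Ifi35, Parp9, Parp14 and Stat2, had 1 each. As 3 counts in this library are 31.5 CPM, no fold is given for members at 0 there. The median log2 difference was 5.62 for the members tested and 5.39 for all genes tested, of which 82.8% had positive estimates. Cmpk2 was at 73.6 CPM in the input and at 6.68, 24 and 39.9 CPM as the lowest, median and highest of the Dnmt1 RIP libraries.

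In cortex, none of the 17 members tested passed the test of m5C RIP against the input, where 0.481% of 13518 genes did; 919 genes (6.8%) but 0 members had an unadjusted p under 0.05, and DESeq2 called 39 genes (0.289%) and no member. The median of the members was 0.36, and 12 of 17 estimates were positive. Cmpk2 was at 33.3, 35.7 and 24.3 CPM in m5C WT, Het and Hom and 21.4 CPM in the input, and Stat2 at 28.4, 40.1 and 28.7 CPM against 37.4. Their log2 differences were 0.54 ± 0.34 and -0.19 ± 0.30 (edgeR adjusted p = 0.871 and 0.992). Ifih1 and Irf9, at -0.78 ± 0.77 and -0.44 ± 0.44, had negative estimates too, and Oasl2 and Gbp3, a guanylate-binding GTPase, positive ones of 1.68 ± 1.31 and 1.23 ± 1.13, none past the test.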

How the data were processed

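The deposited tables hold whole-number read counts per gene, 1 table per library, for 15 libraries in 11 groups. The authors trimmed reads with Trim Galore 0.4.1 and used HISAT2, featureCounts and mm10, per the submitters' processing notes; these notes name no other version, no annotation and no strand option. Per the labels' protocols, both ribosomal RNA depletion and poly(A) enrichment were named. In 6 tables, 5 extra entries that name no gene were left out (63.2 to 89.5% not aligned, 4.36 to 18.4% in no feature). All 31017 gene entries were used, and 30532 matched GENCODE M21 by symbol for exon lengths.

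Libraries were grouped by their labels. Counts were fitted with edgeR 4.0.16 (TMM, filterByExpr with a minimum count of 10 and total of 15, quasi-likelihood test, Benjamini-Hochberg adjustment over all genes tested, threshold 0.05; R 4.3.3), with genotype as a term in the tissue and antibody fits. The standard error is the log2 change over the square root of F. Levels are CPM of the total without Lars2, Gm42418, Gm26917 and Gm10800. Ratios of single libraries used a prior count of 2, at least 50 counts over the pair and a 2-fold limit, with no test. Intervals are 95% exact binomial and, as reads carry no molecular identifiers, cover counting error only; the floor is 3 counts. The lone inputs were assumed to vary like the other libraries of their fit. Scripts ran on Python 3.11.15 and were tested on simulated data with 200 changed genes, drawn at random from all genes tested. DESeq2 1.42.0, other scalings, no filter, removal of the 4 genes, the replicate block and leaving out libraries were alternatives. Promoters came from the RefSeq table of GRCm38.p6. Named were the 4 factors, the 5 sensors, the 8 highest members per kilobase, called members up to 12 by p, and otherwise the 3 with the lowest p in each direction; further names were chosen after their values were seen. The members, lists and tests were chosen with earlier results of these data known.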

Additional observations from a re-analysis of the deposited data

How the results depend on the processing

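In the tissue comparison, the same 30 members passed the threshold in every alternative run, joined by Cxcl10 without a filter (31). The range over left-out libraries was 7469 to 8174 genes called there, with a median of the members of 2.98 to 3.31. In the antibody comparison it was 3296 to 6058 genes, 4 to 17 members and a median of -1.36 to -0.94. No filter gave 21 members there, with no share of all genes to set beside them. Bst2, Trim25, Oasl2 and Ifit1 had an adjusted p of at most 0.0423 in every alternative. For Het against WT in the Dnmt1 RIP, left-out libraries gave 0 to 38 genes, 0 members and a median of -0.065 to 1.41, no filter 192 genes and 2 members (Irf1 and Bst2), and DESeq2 11 genes. For Hom against WT they gave 0 genes, 0 members and a median of -0.039 to 0.89, total counts alone 2 genes and no filter 13. For Hom against Het they gave 0 to 35 genes, 0 members and a median of -1.12 to 0.31, no filter 113 genes and 1 member (Bst2), and DESeq2 15 genes. Without Het library 2, 9 of the 28 members changed sign in Het against WT and 10 in Hom against Het, and without WT library 2, 10 did in Hom against WT. Of the 6 members followed by p in each comparison, those that turned sign were Samd9l in Het against WT (1.04 without WT library 1, 0.18 without Het library 1; range -1.30 to 1.04), Zbp1 and Stat2 in Hom against WT (0.17 and 0.10 without WT library 1; ranges -5.41 to 0.17 and -0.54 to 0.10), Trim25 there (0.21 without WT library 2; range -1.91 to 0.21) and Oas3 in Hom against Het (-0.40 without Hom library 1; range -0.40 to 2.04). In fibroblast m5C RIP, leaving out Hom gave 5 genes, 0 members and a median of 0.18, total counts alone 2 genes, no filter 2 and DESeq2 0. Against the fibroblast input, left-out libraries gave 0 to 850 genes, 0 to 1 members and a median of 5.04 to 6.06, total counts alone 1335 genes, no filter 1944, and DESeq2 128 genes and a median of 2.35. Against the cortex input they gave 56 to 209 genes, 0 members and a median of 0.23 to 0.35, no filter 109 genes and DESeq2 39. For the difference in Het effect they gave 0 genes, 0 members and a median of -0.46 to 1.21, and no filter 2 genes. With at least 20 counts, members past 2-fold numbered 2 for cortex Het, 1 for cortex Hom and 7 for fibroblast Hom. The cause of these shifts was not tested. With the replicate block, 0 genes were called in each Dnmt1 RIP comparison. The members' medians were then 0.63 for Het against WT, 0.19 for Hom against WT and -0.54 for Hom against Het. Correlations of same-numbered deviations were -0.0059, 0.20 and 0.06. The labels name no batch shared by same-numbered libraries, and these values cannot decide whether there was one. DESeq2 gave no adjusted p for 27 members in Het against WT, 28 in Hom against Het, 30 against the fibroblast input and 16 against the cortex input. Not run, for lack of residual degrees of freedom or of a group, were fibroblast m5C RIP without either WT library or Het, the input comparisons without the input, and the difference in Het effect without m5C WT library 2 or Het. Depth limits low values in the fibroblast input, where 3 counts are 31.5 CPM, and in the Dnmt1 RIP, where they are 2.52 to 15.5 CPM. The members' median against the fibroblast input, 5.62 in the main fit, stood beside 5.39 for all genes tested.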

Other observations

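Subtracting the Hom counts from those of fibroblast m5C WT library 1 gene by gene leaves 249780 counts, 117058 without the 4 dominant genes. The remainder holds 127 counts of the interferon response genes, or 1085 CPM, and 3 counts of Bst2, or 25.6 CPM, against 210.4 CPM in WT library 2. Of the 34 members, 9 have the same count in both libraries, as do 7163 of the 19511 genes detected in Hom. Over all 15 libraries, the highest level of a member lay in Dnmt1 RIP Het library 2 for 10 members. It lay in fibroblast m5C Hom for 8 and Het for 6, and in no cortex library for any. The like shares over all genes were not computed.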
